A study of Mus musculus with 6 samples.

Results

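The matrix proteases and their inhibitors are described here in retinas of 2-month-old mice with and without *Yap* in Müller cells. The genes were chosen by symbol and annotation only, as every protein-coding gene of the count table named Mmp, Adamts or Adamtsl with a number, and *Timp1* to *Timp4*. Symbols with a letter after the number were not included. The rule found 49 of 55421 genes, namely 21 matrix metalloproteinases (MMPs), 19 ADAMTS enzymes, 5 ADAMTS-like proteins and 4 tissue inhibitors of metalloproteinases (TIMPs). Mice of the control group, YR612, YR613 and YR615, were Yap flox/flox without a Cre transgene. The *Yap* cKO group, YR711, YR713 and YR714, was Yap flox/flox;Rax-CreERT2. Every animal of both groups had received 4-hydroxytamoxifen, the drug that switches the Cre recombinase on, at postnatal days 10 and 14. In the postnatal eye the *Rax* driver is active in Müller glia and in the non-pigmented epithelium of the ciliary body, so other retinal cells of a *Yap* cKO animal keep the gene. Since the controls lacked Cre, the effect of the recombinase and that of *Yap* loss cannot be told apart. RNA came from whole retina, 1 library per animal (n = 3 per group), as gene counts from stranded libraries of polyadenylated RNA. Levels are given in TPM, the counts divided by exonic length and scaled to the same total in each retina, so that genes of different length can be compared.

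MMPs and ADAMTS enzymes are secreted or membrane-bound zinc proteases that cut collagens, proteoglycans and other matrix proteins, and most are made as inactive proenzymes. TIMPs block the MMP active site, and TIMP3, which is bound to matrix, also blocks several ADAMTS enzymes. ADAMTS-like proteins share the ancillary domains of the ADAMTS family but carry no protease domain, and several of them bind fibrillin microfibrils. In the eye these proteins are known for the turnover of the outflow pathway, the zonule, the vitreous and Bruch's membrane, where TIMP3 from the retinal pigment epithelium accumulates.

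*Yap1*, the floxed gene, had 9.48, 9.52 and 9.83 TPM in the control retinas and 3.99, 3.76 and 3.94 TPM in the *Yap* cKO retinas. The groups did not overlap (log2 fold change −1.36, SE 0.093, edgeR quasi-likelihood test, adjusted p = 0.000282). Total counts ranged from 24261799 to 35067068 per retina. Relative expression depended on exonic length in individual retinas. Spearman's rho across genes ranged from −0.413 to 0.172 in the controls and from −0.151 to 0.396 in *Yap* cKO, and the log2 fold change itself had a rho of 0.391 with length, so values with a length correction are printed where they change the call of a gene named here. From *Xist* and *Ddx3y*, 2 control and 1 *Yap* cKO retina were read as male, and 1 control and 2 *Yap* cKO retinas as female. Müller glia markers were present at a summed level of 7188 to 7418 TPM in controls and 6344 to 6800 TPM in *Yap* cKO, and 0 of 10 passed the test. Levels of markers of tissue next to the retina differed between retinas. The 6 listed genes of the retinal pigment epithelium summed to 654 to 721 TPM in controls and 202 to 706 TPM in *Yap* cKO, the 5 of melanin pigment cells to 70.6 to 77.9 and 16.7 to 47.7 TPM, and the 10 of the ciliary non-pigmented epithelium to 356 to 370 and 393 to 461 TPM. Of these, 0 of 6 pigment epithelium genes passed the test, 1 of 5 melanin genes was lower, and of the 8 tested ciliary genes 1 was higher and 1 lower. The median log2 fold change of these 8 was −0.33. *Aqp1* alone held 224 to 238 TPM of the ciliary sum in controls and 262 to 316 TPM in *Yap* cKO. No marker of these lists was at 0 TPM in all retinas, and the part of these tissues in the differences below was not tested beyond the values given beside them.

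One protease gene, *Adamts1*, rose in *Yap* cKO retinas, by 1.52-fold, and 0 of the 36 genes with enough counts to be tested fell. *Adamts1* encodes a secreted proteoglycanase that cuts aggrecan and versican. Of these 36 genes, 1 was higher and 0 were lower at an adjusted p of at most 0.05, against 0.501% higher and 0.989% lower among all 16575 genes tested. The same gene was the 1 member that met the criteria of the study, which also ask for a 1.5-fold change or more and a group mean of 5 TPM or more, and which 0.796% of all tested genes met. At an unadjusted p of at most 0.05, 2 members were higher and 4 lower, or 16.7%, a share below the 21.4% of all tested genes. In whole retina, fewer cells of a type and less RNA per cell cannot be told apart.

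The directions of the fold changes were mixed. The log2 fold change was above 0 in 20 tested members and below 0 in 16, with a median of 0.06 beside 0.00 over all tested genes. Tested members had a median exonic length of 6450.5 bases, against 4132 bases for all tested genes, and with the length correction their median was −0.04. In 7 members all *Yap* cKO retinas lay above all controls, or 19.4% beside 15.2% of all tested genes, and in 2 members all lay below, or 5.56% beside 9.04%. The 7 were *Adamts1*, *Adamts4*, *Adamts16*, *Mmp9*, *Mmp17*, *Mmp24* and *Timp4*, and the 2 were *Timp2* and *Adamts2*. With 3 retinas per group the smallest two-sided p of an exact permutation test is 0.1, so no such p is printed.

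**Figure D1:**
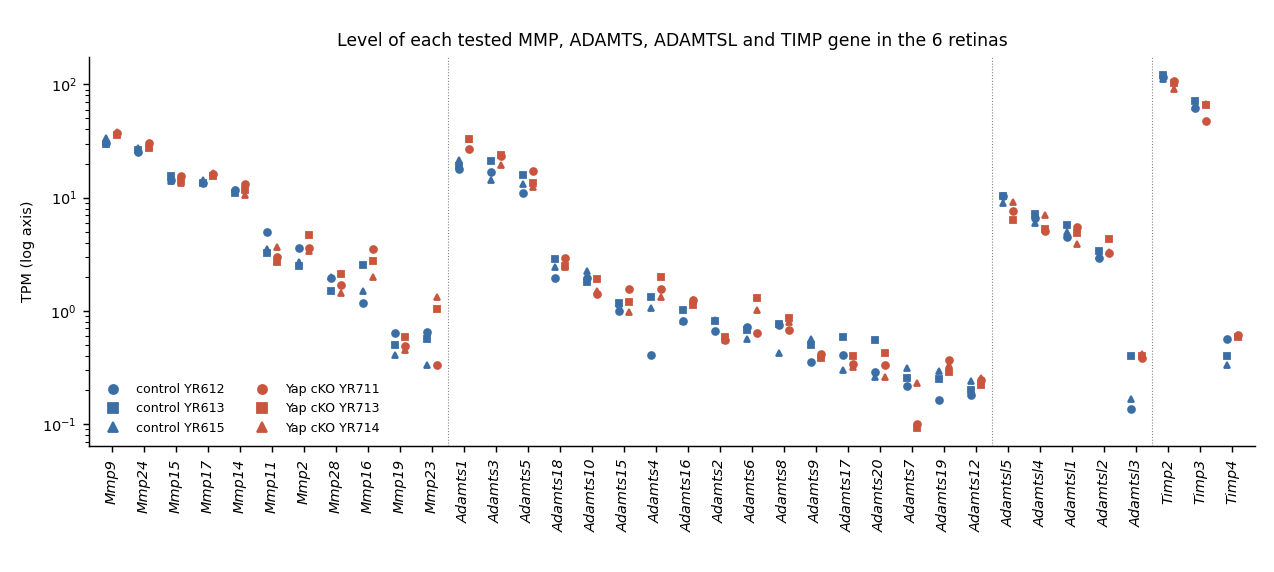
Level of the 36 tested genes in each retina, in TPM on a log axis, with control retinas in blue and *Yap* cKO retinas in red, grouped into MMP, ADAMTS, ADAMTSL and TIMP genes and ordered by mean level. *Timp2* and *Timp3* stand above all proteases, 5 MMP and 3 ADAMTS genes lie above 10 TPM, and the groups of most genes overlap.

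Of the 4 families, the TIMPs had the highest summed level on the TPM scale in both groups. Summed over the 4 TIMP genes, it was 184 ± 8.45 TPM in controls and 161 ± 8.17 TPM in *Yap* cKO (SD, n = 3), a ratio of 0.877. The MMP genes together had 109 ± 2.26 and 121 ± 3.48 TPM, a ratio of 1.11, which was 1.05 when counts were not divided by length. The ADAMTS genes had 61.8 ± 6.74 and 80.0 ± 3.56 TPM, a ratio of 1.29, or 1.17 without division by length. The ADAMTS-like genes had 24.9 ± 1.98 and 22.4 ± 1.40 TPM, a ratio of 0.898. These sums carry no test, and a few genes make up most of each. *Adamts1* alone held 31.9% of the ADAMTS sum in controls and 38.8% in *Yap* cKO, and *Mmp9* held 28.6% and 30.6% of the MMP sum.

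Among the ADAMTS proteoglycanases, which cleave aggrecan, versican and related proteoglycans, 7 of 7 genes were tested, 1 rose, 0 fell and 6 did not pass. *Adamts1* (ENSMUSG00000022893, GRCm38 chr16:85793827-85803113, minus strand) had 18.0, 19.2 and 21.5 TPM in the control retinas and 27.1, 32.9 and 33.0 TPM in the *Yap* cKO retinas. All 3 *Yap* cKO retinas lay above all 3 controls, with YR711 the lowest of them. The log2 fold change was 0.61 (SE 0.11, 95% interval 0.37 to 0.85, edgeR quasi-likelihood test, adjusted p = 0.0318).

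The fold change of *Adamts1* sits at the 1.5-fold limit, and its adjusted p depends on single retinas. The direction was the same in each alternative, with log2 fold changes from 0.52 to 0.70. Without control YR612 the adjusted p was 0.158, without control YR615 it was 0.0936 and without *Yap* cKO YR713 it was 0.169. Without control YR613 (log2 fold change 0.58) or *Yap* cKO YR714 (0.54) it stayed at most 0.05 but the fold fell under 1.5, so that leaving out YR711 was the one omission under which all criteria were still met. The number of all genes that met the criteria also shifted, from 132 to 40 without YR612, 38 without YR615 and 68 without YR713. It was 516 without YR613, 448 without YR714 and 104 without YR711. With the length correction the log2 fold change of *Adamts1* was 0.58 (adjusted p = 0.018). It was 0.56 (0.037) with upper-quartile scaling and 0.52 (0.0359) with sex as a covariate, and each was below 1.5-fold. Within retinas read as male the *Yap* cKO to control ratio of TPM was 1.46 (1 against 2 retinas), and within those read as female it was 1.53 (2 against 1). Endothelial cells are a known source of ADAMTS1, and their 7 listed markers, of which 0 passed the test, summed to 221 to 232 TPM in controls and 193 to 255 TPM in *Yap* cKO. The highest *Yap* cKO sum, in YR711, held 141 TPM of *Kdr* alone, and the part of these cells in the *Adamts1* values was not tested.

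**Figure D2:**
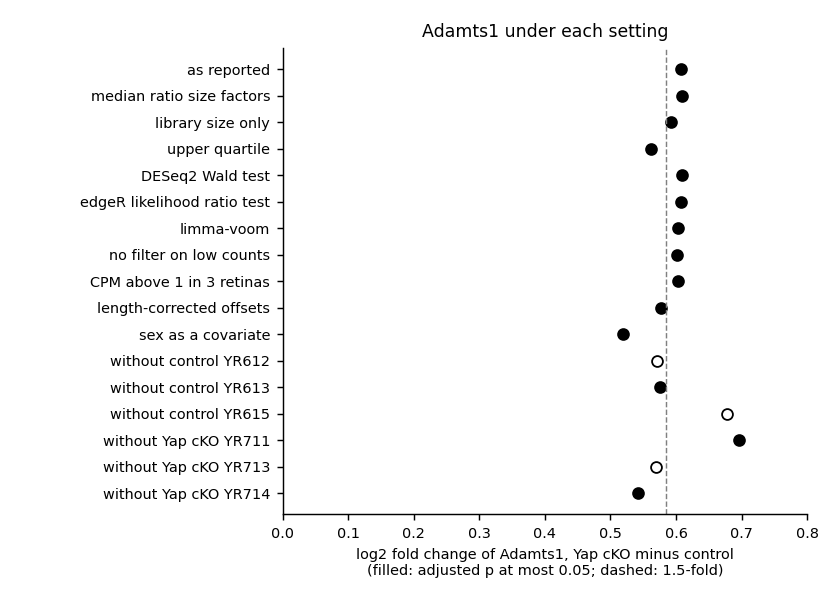
Log2 fold change of *Adamts1* (horizontal axis) as reported and under each other scaling, test, filter, covariate or left-out retina, with filled points for an adjusted p of at most 0.05 and a dashed line at 1.5-fold. All points lie between 0.52 and 0.70, and the 3 open points are the fits without YR612, YR615 or YR713.

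The bases before the *Adamts1* start site are shown because it was the one gene called. They are the 250 bases upstream of the RefSeq start on GRCm38.p6, chr16:85803114-85803363, printed 5′ to 3′ on the minus strand, and the capitals mark a TATAAA match whose first base lies 32 bases before the start.
Adamts1: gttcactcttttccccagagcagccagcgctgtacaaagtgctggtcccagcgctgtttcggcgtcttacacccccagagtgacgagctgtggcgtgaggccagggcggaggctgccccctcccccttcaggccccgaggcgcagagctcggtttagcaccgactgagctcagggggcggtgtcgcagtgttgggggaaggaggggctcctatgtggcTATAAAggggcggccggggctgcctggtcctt

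RefSeq windows from 250 bases before to 50 bases after a start were given for 34 of the 49 genes, as 37 windows. The 15 genes without a window all belonged to the 36 tested genes, of which 21 had one. TEAD factors, the DNA-binding partners of YAP, recognise GGAATG. Searched on both strands, these letters were in 14.7% of 32851 windows of all genes and in 2 of the 37, those of *Timp1* and *Adamts13*, and not in the *Adamts1* window. TATAAA on the strand of the gene was in 8.32% of all windows and in 9 of the 37. A match describes the sequence and is not evidence of binding, and the lack of one says only that the letters are not in this window.

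*Adamts4*, another aggrecan- and versican-cleaving enzyme, had 0.410, 1.33 and 1.06 TPM in controls and 1.56, 2.01 and 1.34 TPM in *Yap* cKO. The lowest *Yap* cKO value exceeded the highest control by a small margin, and control YR612 was the lowest retina. Its log2 fold change was 0.76 (SE 0.33, adjusted p = 0.226), and its adjusted p was 0.0265 when no filter on low counts was applied. Without the filter, 369 of all genes met the criteria of the study, against 132 with it. *Adamts1* then had an adjusted p of 2.77e-06 in the edgeR quasi-likelihood fit at the same SE of 0.11. An adjusted p without the filter therefore cannot be set beside one with it. *Adamts5*, the neighbour of *Adamts1* on the same strand of chromosome 16 (chr16:85856173-85901828) and a major aggrecanase of cartilage, had 10.97, 15.8 and 13.2 TPM in controls and 17.1, 13.6 and 12.3 TPM in *Yap* cKO. Its groups overlapped, with a log2 fold change of 0.05 (SE 0.14, 95% interval −0.26 to 0.36, adjusted p = 0.86) that became −0.11 with the length correction, −0.06 without YR612 and −0.09 without YR711. The other members of the group, *Adamts8*, *Adamts9*, *Adamts15* and *Adamts20*, had group means from 0.337 to 1.24 TPM and log2 fold changes from −0.30 to 0.24.

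Of the procollagen N-propeptidases, which trim fibrillar procollagens, 2 of 3 genes were tested and neither passed. *Adamts2*, the main processing enzyme of type I procollagen, had 0.666, 0.813 and 0.836 TPM in controls and 0.553, 0.591 and 0.549 TPM in *Yap* cKO. All *Yap* cKO retinas lay below all controls, at levels under 1 TPM throughout (log2 fold change −0.51, SE 0.18, adjusted p = 0.158). Connective tissue fibroblasts are a known source of *Adamts2*. Their 7 listed markers summed to 10.9 to 13.2 TPM in controls and 7.89 to 10.9 TPM in *Yap* cKO, where *Col1a2*, a type I collagen chain, fell with a log2 fold change of −2.16 (adjusted p = 0.00236). The other 3 tested markers of that list did not pass, with log2 fold changes of 0.08 for *Col1a1*, −0.0042 for *Col3a1* and −0.05 for *Pdgfra*. The part of this in the *Adamts2* values was not tested.

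*Adamts3*, which acts on procollagen II and on the proform of VEGF-C, had 16.9, 21.2 and 14.3 TPM in controls and 23.5, 23.8 and 19.5 TPM in *Yap* cKO. Control YR613 lay above *Yap* cKO YR714, so the groups overlapped (log2 fold change 0.29, SE 0.14, adjusted p = 0.245). Its control range overlapped those of *Adamts1* and *Adamts5*, and these 3 genes form the upper class of the family in retina, well above all others. *Adamts18*, the next in level, had 1.97, 2.90 and 2.45 TPM in controls and 2.91, 2.48 and 2.42 TPM in *Yap* cKO. Here the groups were mixed, and the log2 fold change of 0.04 (SE 0.15, adjusted p = 0.904) was −0.10 with the length correction, −0.01 with upper-quartile scaling, −0.08 without YR612 and −0.04 without YR711.

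*Adamts10*, which binds fibrillin and is mutated in Weill-Marchesani syndrome, a disorder with small spherical lenses and glaucoma, had 1.95, 1.80 and 2.27 TPM in controls and 1.40, 1.89 and 1.51 TPM in *Yap* cKO. The *Yap* cKO retina YR713 lay within the control range and the other two lay below it. The log2 fold change was −0.38 (SE 0.17, adjusted p = 0.232). Its relative *Adamts6* had 0.653 TPM in controls and 0.984 TPM in *Yap* cKO on average, with a log2 fold change of 0.56 (adjusted p = 0.259). *Adamts7* and *Adamts12*, which cleave cartilage oligomeric matrix protein, had group means from 0.141 to 0.261 TPM, and *Adamts16*, *Adamts17* and *Adamts19* from 0.236 to 1.21 TPM. None of these 5 passed the test, with log2 fold changes from −0.96 to 0.40. *Adamts13*, the von Willebrand factor-cleaving enzyme made in the liver, and *Adamts14* had at most 3 counts in any retina and were not tested.

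**Figure D3:**
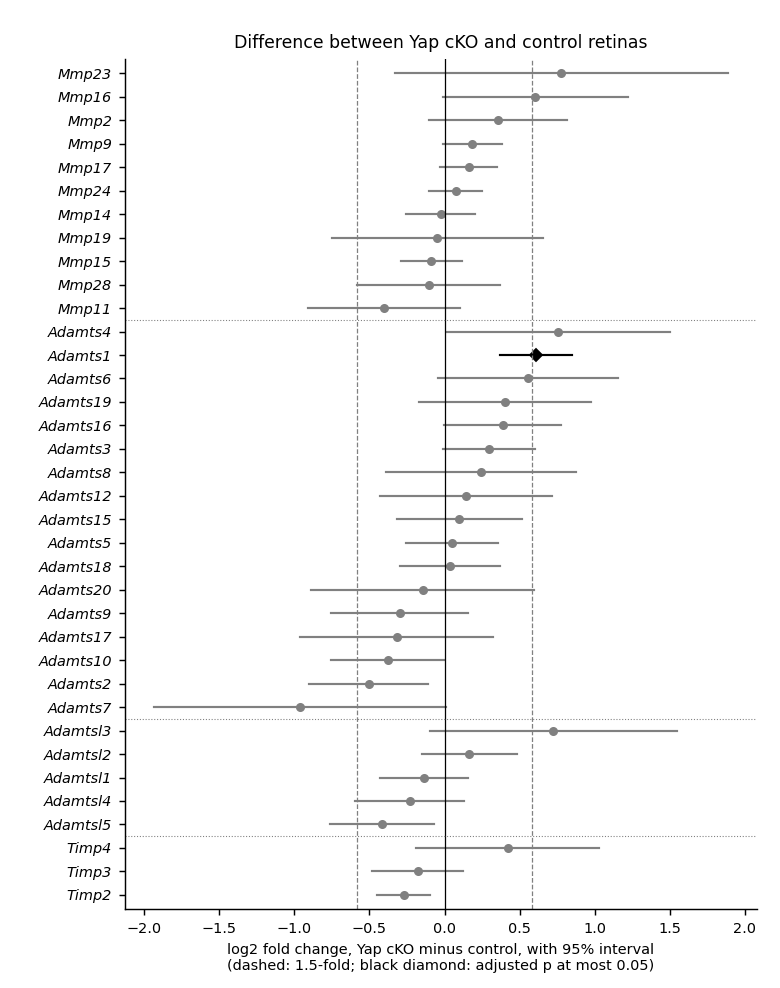
Log2 fold change of each tested gene, *Yap* cKO minus control, with its 95% interval from the edgeR quasi-likelihood fit, dashed lines at 1.5-fold in either direction and a black diamond for an adjusted p of at most 0.05. *Adamts1* is the one diamond, the intervals of *Timp2*, *Mmp24*, *Mmp17* and *Mmp9* are among the narrowest, and low-level genes such as *Mmp23* and *Adamts7* have the widest.

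Of the 5 ADAMTS-like genes, 5 were tested and 0 passed. *Adamtsl5*, a fibrillin-binding protein, had the highest level of the group, with 10.4, 10.4 and 8.96 TPM in controls and 7.66, 6.33 and 9.20 TPM in *Yap* cKO. The *Yap* cKO retina YR714 lay within the control range and the others below it (log2 fold change −0.42, SE 0.15, adjusted p = 0.176). Its adjusted p was 0.0428 without YR714 and 0.0424 when no filter on low counts was applied. *Pcsk4* lies 9612 bases from *Adamtsl5* on the same strand, at 8.97 TPM in controls and 6.86 TPM in *Yap* cKO (log2 fold change −0.45). *2310011J03Rik*, 18573 bases away on that strand, had a log2 fold change of −0.10. Whether transcripts of either neighbour add reads to *Adamtsl5* was not tested.

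*Adamtsl4*, whose loss displaces the lens in humans, had 6.61, 7.13 and 5.98 TPM in controls and 5.03, 5.31 and 7.08 TPM in *Yap* cKO. *Yap* cKO YR714 again lay within the control range, and the log2 fold change was −0.23 (SE 0.16, adjusted p = 0.417). *Adamtsl1* had 4.49, 5.74 and 4.93 TPM in controls and 5.53, 4.91 and 3.91 TPM in *Yap* cKO. Those groups overlapped (log2 fold change −0.14, SE 0.13, adjusted p = 0.56), and the value is uncertain because *Sh3gl2*, at 178 TPM in controls, overlaps the gene on the same strand. *Adamtsl2*, which binds latent TGF-β binding protein, had 2.96, 3.40 and 3.04 TPM in controls and 3.27, 4.33 and 3.33 TPM in *Yap* cKO, with overlapping groups and a log2 fold change of 0.17 (SE 0.14, adjusted p = 0.503). *Adamtsl3* was the lowest of the group, with 0.137, 0.396 and 0.168 TPM in controls and 0.384, 0.401 and 0.416 TPM in *Yap* cKO. Its *Yap* cKO retinas were close together while control YR613 reached their level (log2 fold change 0.73, SE 0.36, adjusted p = 0.278), and without YR613 the adjusted p was 0.0473.

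The MMP family divided into 5 genes above 10 TPM and many at or near 0 counts. In controls *Mmp9* was highest, followed by *Mmp24*, *Mmp15*, *Mmp17* and *Mmp14*. Within that order only *Mmp15* and *Mmp17* overlapped among the control retinas. Of 21 MMP genes, 11 were tested and 0 passed, with adjusted p from 0.24 to 0.958.

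*Mmp9*, gelatinase B, which degrades denatured collagen and basement membrane collagen IV, had 30.3, 29.8 and 33.6 TPM in controls and 36.9, 35.8 and 38.3 TPM in *Yap* cKO. All *Yap* cKO retinas lay above all controls, but the difference did not pass the test (log2 fold change 0.19, SE 0.087, 95% interval −0.01 to 0.38, adjusted p = 0.25). *Slc12a5*, the neuronal chloride transporter KCC2, lies 4952 bases from *Mmp9* on the same strand at 403 TPM in controls and 502 TPM in *Yap* cKO (log2 fold change 0.26), and whether unannotated transcripts of that gene add reads to *Mmp9* was not tested. *Mmp2*, gelatinase A, had 3.60, 2.51 and 2.702 TPM in controls and 3.58, 4.70 and 3.39 TPM in *Yap* cKO. Control YR612 lay within the *Yap* cKO range (log2 fold change 0.35, SE 0.21, adjusted p = 0.335).

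Membrane-type MMPs act at the cell surface, and MMP14 among them activates the MMP2 proenzyme. Of 6 such genes, 5 were tested and 0 passed. *Mmp14* had 11.8, 11.1 and 11.6 TPM in controls and 13.1, 11.6 and 10.6 TPM in *Yap* cKO. The *Yap* cKO retinas lay on both sides of the control range. Its log2 fold change was −0.02 (SE 0.10, 95% interval −0.26 to 0.21, adjusted p = 0.905) and turned to 0.01 with sex as a covariate, 0.02 without YR612 and 0.03 without YR714.

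*Mmp15* had 14.4, 15.6 and 14.1 TPM in controls and 15.6, 14.1 and 13.5 TPM in *Yap* cKO. The groups overlapped almost fully (log2 fold change −0.09, SE 0.090, adjusted p = 0.583). *Mmp17*, which is held at the membrane by a lipid anchor, had 13.5, 13.4 and 14.4 TPM in controls and 16.1, 15.4 and 16.6 TPM in *Yap* cKO. No retina overlapped, and the log2 fold change was 0.16 (SE 0.086, adjusted p = 0.303). *Mmp24*, a neural member that cleaves N-cadherin, had 25.3, 26.3 and 27.2 TPM in controls and 30.6, 27.6 and 28.2 TPM in *Yap* cKO. Here too all *Yap* cKO retinas were higher, by a margin within the error of the fit (log2 fold change 0.07, SE 0.078, adjusted p = 0.6). *Mmp16* had 1.74 ± 0.725 TPM in controls and 2.76 ± 0.782 TPM in *Yap* cKO (SD, n = 3), with overlapping groups and a log2 fold change of 0.61 (SE 0.27, adjusted p = 0.24, or 0.00982 with no filter on low counts). *Mmp11*, *Mmp19*, *Mmp23* and *Mmp28* had group means from 0.510 to 3.93 TPM and log2 fold changes from −0.40 to 0.78.

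Among the genes found by the rule, the 2 collagenases *Mmp8* and *Mmp13*, most stromelysins and the matrilysin were at or near 0 counts. The 7 genes *Mmp3*, *Mmp7*, *Mmp8*, *Mmp10*, *Mmp20*, *Mmp21* and *Mmp27* had 0 counts in every retina, which allows up to 3 counts, or 0.0856 to 0.124 CPM depending on the retina, for counting error only. *Mmp13* and *Mmp25* had at most 2 counts. *Mmp12*, the macrophage elastase, had 6, 6 and 11 counts in controls and 6, 10 and 6 in *Yap* cKO and was not tested. Its groups overlapped, and the summed level of 8 microglia and macrophage markers was 116 to 149 TPM in controls and 126 to 146 TPM in *Yap* cKO.

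Most of these genes with few or no counts are neighbours. A stretch of 427 kb on chromosome 9, chr9:7272514-7699585, holds 8 of the 21 MMP genes found by the rule, all on the plus strand. They are *Mmp13*, *Mmp12*, *Mmp3*, *Mmp10*, *Mmp8*, *Mmp27*, *Mmp20* and *Mmp7*, and apart from *Mmp12* the highest count of any in a retina was 2. Promoters of inducible MMP genes are known for an AP-1 element, bound by FOS and JUN factors. TGAGTCA, searched on both strands, was in 5.2% of all 32851 windows and in 5 of the 37 windows of these families. All 5 belong to this stretch, all 5 also held TATAAA, and 0 of the 5 genes had enough counts to be tested. The 15 genes without a window, which were all tested for expression, were not searched for either motif. The sites are shown with 15 bases on either side, from RefSeq, GRCm38.p6, plus strand, with the match in capitals, because 5 of the 8 neighbours hold the match. They lie at chr9:7272464-7272500 for *Mmp13*, chr9:7347315-7347351 for *Mmp12*, chr9:7445761-7445797 for *Mmp3*, chr9:7502264-7502300 for *Mmp10* and chr9:7692012-7692048 for *Mmp7*, and their first bases are 35, 44, 46, 63 and 63 bases before the start site.
Mmp13: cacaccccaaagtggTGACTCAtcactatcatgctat
Mmp12: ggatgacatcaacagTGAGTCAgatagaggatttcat
Mmp3: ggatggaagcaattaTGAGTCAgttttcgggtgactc
Mmp10: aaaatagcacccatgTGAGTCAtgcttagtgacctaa
Mmp7: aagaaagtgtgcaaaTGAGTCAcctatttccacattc

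These genes are paralogs that arose next to each other, so the shared letters are not independent of each other. The *Mmp13* site reads as the reverse complement of the other 4.

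Of the 4 TIMP genes, 3 were tested and 0 passed. *Timp2*, a broad MMP inhibitor that also takes part in the activation of MMP2 by MMP14, was the highest gene of all 49, with 115, 121 and 112 TPM in controls and 107, 103 and 90.9 TPM in *Yap* cKO. All *Yap* cKO retinas lay below all controls, and YR714 was the lowest. The log2 fold change was −0.27 (SE 0.078, 95% interval −0.45 to −0.10) with an unadjusted p of 0.00629 in the edgeR quasi-likelihood fit and an adjusted p of 0.111. Across left-out retinas the log2 fold change ranged from −0.32 to −0.22. *Cep295nl*, which lies within *Timp2* on the same strand, had a mean of 0.273 TPM in controls.

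*Timp3*, the matrix-bound inhibitor, had 62.5, 71.4 and 63.4 TPM in controls and 47.1, 66.0 and 67.6 TPM in *Yap* cKO. *Yap* cKO YR711 stood below all other retinas, while YR713 and YR714 lay within the control range (log2 fold change −0.18, SE 0.14, adjusted p = 0.453). The summed level of the retinal pigment epithelium markers was 202, 371 and 706 TPM in YR711, YR713 and YR714, in the same order as *Timp3*, and 654 to 721 TPM in controls. The part of that tissue in the *Timp3* values was not tested.

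*Timp4* had 0.566, 0.396 and 0.331 TPM in controls and 0.611, 0.585 and 0.596 TPM in *Yap* cKO. All *Yap* cKO retinas lay above the controls, with YR612 close to them (log2 fold change 0.42, SE 0.27, adjusted p = 0.382). *Timp1*, an inhibitor induced in reactive glia and inflammation, had 15, 4 and 12 counts in controls and 0, 6 and 1 in *Yap* cKO, or 2.56, 0.657 and 1.76 TPM and 0, 0.776 and 0.165 TPM. Control YR613 lay within the *Yap* cKO range. The gene did not pass the filter on low counts. When no filter was applied its log2 fold change was −2.23 with an adjusted p of 0.00866, at 31 counts in all controls together and 7 in all *Yap* cKO retinas. The limit given at *Adamts4* for an adjusted p without the filter holds here too.

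**Figure D4:**
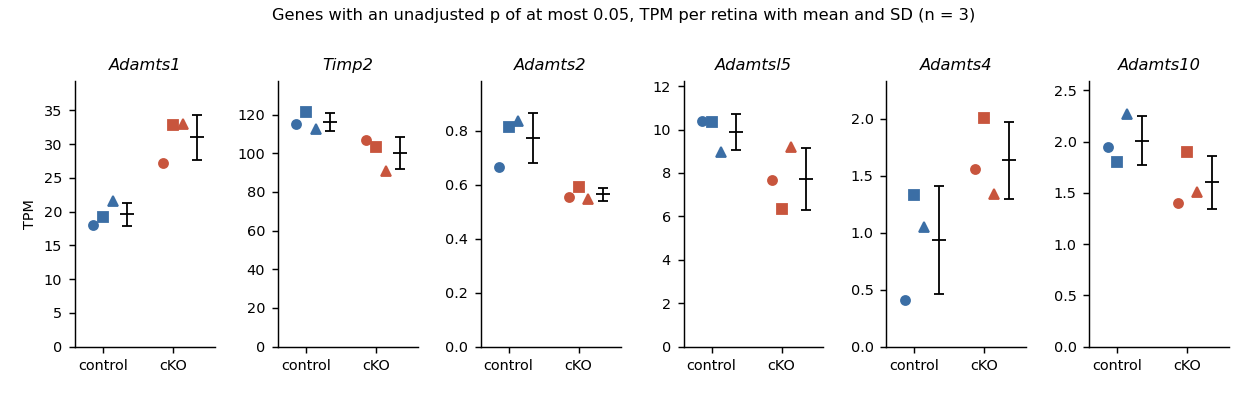
TPM in each retina (circles, squares and triangles mark YR612, YR613 and YR615 in blue for control and YR711, YR713 and YR714 in red for *Yap* cKO) with the mean and SD (n = 3) for the 6 genes with an unadjusted p of at most 0.05. In *Adamts1* and *Adamts4* all *Yap* cKO retinas lie above the controls, in *Timp2* and *Adamts2* all lie below, and in *Adamtsl5* and *Adamts10* the groups overlap.

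Among other genes of matrix proteolysis, several fell. Of 46 listed genes, 39 were tested, 0 rose and 5 fell at an adjusted p of at most 0.05, beside the 0.501% higher and 0.989% lower over all tested genes, and 4 of the 5 met all criteria. Their median log2 fold change was 0.07.

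Fibrillin and LTBP genes, whose products bind ADAMTS-like proteins in microfibrils, held 2 of the 5, with 2 of 6 tested genes falling and a median log2 fold change of −0.89. With the length correction 2 more passed as lower, *Fbn2* (log2 fold change −1.41, adjusted p = 0.0432) and *Ltbp1* (−0.79, adjusted p = 0.0275), so that 4 of the 6 fell. Over all genes 155 met the criteria of the study with that correction (47 higher, 108 lower), against 132 without it (35 higher, 97 lower). Those criteria also ask for a minimum fold and level. *Fbn1*, fibrillin-1, had 8.11, 9.998 and 7.51 TPM in controls and 3.90, 3.79 and 3.03 TPM in *Yap* cKO (log2 fold change −1.31, SE 0.13, adjusted p = 0.00223). *Ltbp2*, a microfibril protein of the ciliary zonule, had 7.19, 6.33 and 7.11 TPM in controls and 0.249, 0.814 and 0.125 TPM in *Yap* cKO (log2 fold change −4.08, SE 0.40, adjusted p = 0.00223). The groups of both genes lay far apart. *Ltbp2* and *Fbn1* are known products of the ciliary non-pigmented epithelium, whose 8 tested markers had a median log2 fold change of −0.33. The 2 that passed were *Cldn2*, with a log2 fold change of −3.35 (adjusted p = 0.00326), and *Slc4a4*, with 0.57 (adjusted p = 0.0498). The part of this tissue in the *Ltbp2* and *Fbn1* values was not tested. *Fbn2*, the third smallest p of the list, had a log2 fold change of −1.16 (adjusted p = 0.0997, or 0.0455 with YR613 left out) without that correction. Leaving out *Yap* cKO YR713 moved the log2 fold change of *Ltbp2* to −5.25.

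Among procollagen C-proteinases and their enhancers, 1 of 4 tested genes fell. *Pcolce*, which enhances the trimming of procollagen C-propeptides, had 13.9, 13.6 and 13.1 TPM in controls and 2.78, 5.50 and 5.63 TPM in *Yap* cKO (log2 fold change −1.59, SE 0.23, adjusted p = 0.0119). Other inhibitors and regulators of metalloproteinases held the last 2 of the 5, among 12 tested. *A2m*, the protease trap α2-macroglobulin, had 17.9, 16.5 and 14.8 TPM in controls and 6.09, 10.4 and 9.004 TPM in *Yap* cKO (log2 fold change −1.001, SE 0.18, adjusted p = 0.0322). *Pcsk5*, a proprotein convertase, had 1.49, 1.99 and 2.06 TPM in controls and 1.15, 0.954 and 1.19 TPM in *Yap* cKO (log2 fold change −0.81, SE 0.16, adjusted p = 0.0421), which is under the level of 5 TPM that the criteria require. With the length correction *Thbs2*, thrombospondin-2, also passed as lower (log2 fold change −1.06, adjusted p = 0.04, or 0.0673 without the correction). In *Pcolce*, *A2m* and *Pcsk5* no *Yap* cKO retina reached the lowest control. The adjusted p rose above 0.05 without control YR612 (0.071 for *Pcolce*, 0.158 for *A2m*, 0.0759 for *Pcsk5*) and without control YR615 (0.0641, 0.111 and 0.195), and for *Pcsk5* also without *Yap* cKO YR711 (0.0779) or YR713 (0.192) and with sex as a covariate (0.0618). *Fbn1* and *Ltbp2* stayed at most 0.0161 with any 1 retina left out. Over all genes 40 met the criteria without YR612 and 38 without YR615, against 132 with all retinas. The counts without each other retina stand at *Adamts1*.

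The hyalectan proteoglycans that ADAMTS1, ADAMTS4 and ADAMTS5 cut showed no gene past the test among 4. *Vcan*, versican, had 2.47, 3.52 and 3.28 TPM in controls and 1.01, 2.65 and 0.587 TPM in *Yap* cKO, with YR713 within the control range (log2 fold change −1.16, SE 0.42, adjusted p = 0.165), but without YR713 it passed as lower (−2.01, adjusted p = 0.00972). The listed ADAM genes, whose membrane proteins are related to the ADAMTS family, had 9 of 9 tested log2 fold changes above 0 (median 0.26) and 0 past the test, while 8329 of all 16575 tested genes were above 0. With the length correction *Adam23* (−0.19) and *Adam15* (−0.03) were below 0, and with sex as a covariate *Adam15* was (−0.0082). Their smallest p belonged to *Adam9*, with 125, 142 and 129 TPM in controls and 160, 177 and 155 TPM in *Yap* cKO (log2 fold change 0.26, SE 0.077, adjusted p = 0.122), in which all *Yap* cKO retinas were higher. The plasminogen system had 0 of 4 tested genes past the test, and *Plau*, the urokinase that activates plasminogen, had a log2 fold change of −0.43 (adjusted p = 0.543) with overlapping groups.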

How the data were processed

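The values are gene counts from retinas of 3 control and 3 *Yap* cKO animals, grouped by the genotype labels, and the age comes from the study's methods. The authors aligned paired-end reads to GRCm38 with STAR 2.7.3a and counted fragments per gene with featureCounts 1.6.2 (strand setting 2), annotation release 98 per the file headers. The deposited counts were not normalized. Symbols and biotypes came from the GRCm38 reference annotation, in which all 49 genes had the same start and end. The counts were filtered with filterByExpr, normalized by TMM and tested with edgeR 4.0.16 (quasi-likelihood test, R 4.3.3) with Benjamini-Hochberg adjustment over 16575 genes. TPM was computed from counts and exonic length. SEs were derived from the fold change and F statistic. Alternatives were other size factors, DESeq2 1.42.0, limma-voom 3.58.1, edgeR's likelihood ratio test, other filters and minimums, offsets corrected for length (loess, span 0.3), sex as a covariate, and each retina left out. Of these fits, the TMM quasi-likelihood fit with and without the length correction was tested on simulated data, and the other alternatives were not.

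The genes, lists, named-gene rule and alternatives were chosen with earlier results of these data known, so no list gets a test or p of its own. Genes named with all values were those with an adjusted or unadjusted p of at most 0.05, the TIMPs, *Mmp2*, *Mmp9*, *Mmp14* and the 5 highest of each protease family. Pathway genes were named at an adjusted p of at most 0.05, up to the 3 smallest p of a list, and *Vcan*, *Fbn2*, *Ltbp1*, *Thbs2*, *Adam9*, *Adam15*, *Adam23* and *Plau* beyond that rule after their values were seen. Total counts ranged from 24261799 to 35067068 per retina, and depth limits genes under 1 TPM most.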

Additional observations from a re-analysis of the deposited data

How the results depend on the processing

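The number of the 49 genes that met the criteria of the study was 1, and 0 with upper-quartile scaling, the length correction or sex as a covariate, where *Adamts1* fell under 1.5-fold. With each retina left out it was 0 to 1. At an adjusted p of at most 0.05 it was 1, 5 with no filter on low counts (*Adamts1*, *Adamts4*, *Adamtsl5*, *Mmp16*, *Timp1*), and 0 to 3 with a retina left out, namely 0 without YR612, YR615 or YR713, 3 without YR613 (*Adamts1*, *Adamtsl3*, *Mmp16*) and 2 without YR714 (*Adamts1*, *Adamtsl5*). Over all genes 132 met the criteria (35 higher, 97 lower), against 263 with DESeq2 (114, 149), 291 with the likelihood ratio test (123, 168) and 369 with no filter (156, 213), and 38 (6, 32) without YR615 to 516 (352, 164) without YR613. Pathway genes at an adjusted p of at most 0.05 numbered 5, against 8 with DESeq2 or the length correction, 9 with the likelihood ratio test, 13 with no filter, 4 with sex as a covariate, and 2 to 9 with a retina left out. Among the genes named with all values, fold changes that changed sign were those of *Adamts18* (−0.0081 upper quartile, −0.10 length, and −0.077 to 0.15 with a retina left out), *Adamts5* (−0.11 length, and −0.093 to 0.17 with a retina left out) and *Mmp14* (0.0054 sex, and −0.10 to 0.025 with a retina left out), none past the test. *Adamts8*, *Adamts12*, *Adamts15*, *Adamts20* and *Mmp19*, also not past it, changed sign with the length correction, sex as a covariate or a retina left out. The ratio of summed levels was 1.05 for MMP and 1.17 for ADAMTS genes on CPM, and 1.23 to 1.38 for ADAMTS with a retina left out. The cause of these shifts was not tested. Alternative values were counted for the tested MMP, ADAMTS, ADAMTSL and TIMP genes named with all values, which leaves out *Mmp16* and *Timp1*. Of these values 317 kept their direction and side of the threshold and 10 changed sign. Another 4 gained and 3 lost an adjusted p of at most 0.05. No paired analysis was possible because the labels give no litter or other pairing of the animals.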
